A study of Mus musculus with 4 samples.

Results

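Neurog1-positive otic cells are epithelial cells of the mouse otic vesicle that carry transcripts of Neurog1, the basic helix-loop-helix factor that starts neuron formation in the inner ear. They were taken from single-cell RNA profiles of the Swiss-Webster mouse at stage E10.5, when embryos had 34 to 36 somites. The cKO (conditional knockout) embryos carried the Pax2-Cre driver, loxP-flanked Tbx2 on both chromosomes (Tbx2f/f), loxP-flanked Tbx3 likewise (Tbx3f/f) and 1 copy of a Cre-dependent reporter (Rosa26-GFPf/+), and the control embryos carried Pax2-Cre and Rosa26-GFPf/+ alone. Both groups therefore carried Pax2-Cre, which is active in the otic lineage and in other Pax2-expressing tissues, and the GFP reporter that it switches on. Each group gave 2 libraries, cKO 1 and cKO 2 against control 1 and control 2, made from pooled otic vesicles with the cochleovestibular ganglion and adjacent tissue and sorted for living GFP-positive cells. The labels name 2 cKO and 3 control embryos in all and do not give their division among libraries. The spread between libraries may therefore be technical in part, and how far cannot be told.

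A cell was selected on the following counts of unique molecular identifiers (UMIs, each standing for 1 captured transcript). It had to show 1000 or more genes, with mitochondrial transcripts no more than 10% of its UMIs. The otic gate asked for at least 1 Epcam UMI, at least 3 UMIs of Hmx2, Hmx3, Lmx1a and Oc90 together, no Trp63 UMI and at most 2 Neurod1 UMIs, and 5278 of 14985 cells passed it. Neurog1 had to reach 2 UMIs, which left 167 cells: 43 in cKO 1 and 58 in cKO 2, against 45 in control 1 and 21 in control 2. The 4950 otic-gate cells with no Neurog1 UMI, called Neurog1-zero otic cells here, served for comparison, and 161 cells with exactly 1 UMI stood between. Values of the 8 gate genes follow from this choice and are given without a test.

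As background, a patch of the ventral otic epithelium switches on Neurog1, and its cells then leave the epithelium and become the neurons of the cochleovestibular ganglion. Neurog1-expressing cells display the Notch ligand Delta-like 1, encoded by Dll1, and so hold back neighbouring cells through Notch receptors. ID proteins bind and block the partners of proneural factors, and BMP signalling keeps Id genes on. Tbx2 and Tbx3 encode closely related T-box transcription factors that mostly repress their targets, and the related Tbx1 is known to restrict the otic neurogenic patch.

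The label's other markers were detected in the cells to different degrees, and their detection in Neurog1-zero cells was not counted. Lfng was found in 37 of 43 and 52 of 58 cKO cells, against 34 of 45 and 17 of 21 control cells. Sox2 was found in 40 and 55 cKO cells and in 44 and 19 control cells. Dll1 was found in 23 and 37 cKO cells and in 16 and 8 control cells. Eya2, a transcriptional co-activator of the placodes, was sparse, in 12 and 8 cKO cells and in 1 and 3 control cells. Marker sums of some other cell types were low and those of others were not. The 7 leukocyte markers reached 0.947 and 3.83 CPM (UMIs scaled to a common library total, as counts per 1000000) in cKO cells and 3.28 and 2.57 CPM in control cells. The 6 erythroid markers summed to 0 and 1.91 CPM in cKO cells and were at 0 in both control libraries. The 7 epibranchial neuron markers summed to 8.05 and 3.83 CPM in cKO cells, against 5.47 and 2.57 CPM in control cells. The 10 mesenchyme markers summed to 36.9 and 80.0 CPM in cKO cells, against 97.3 and 47.6 CPM in control cells. The 9 neural tube neuron markers, which include the otic gene Pax2, summed to 85.7 and 63.6 CPM in cKO cells, against 49.7 and 95.2 CPM in control cells. Control 2 stood apart in the 9 neural tube progenitor markers, at 16.1 and 12.6 CPM in cKO cells against 6.01 and 86.2 CPM in control cells. It did so too in the 6 surface ectoderm markers, at 14.7 and 22.2 CPM in cKO cells against 23.0 and 75.9 CPM in control cells. Their part in the results was not tested.

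Several features of the libraries moved with genotype or stood apart. The libraries held 106769747 and 124986694 UMIs for cKO, against 128205192 and 111724972 for control. Neurog1-positive cells had median totals of 46921 and 41932 UMIs in cKO, against 35501 and 33019 in control, and median mitochondrial shares of 1.15% and 1.17% in cKO, against 2.40% and 2.79% in control. In control 1, 1 cell with 2 Neurog1 UMIs held 230644 of the 1829543 UMIs summed over its Neurog1-positive cells. The part of depth and RNA quality in the results was not tested. In control 2, a single Neurog1-positive cell held 154 UMIs of 7 neuron genes (Stmn2, Elavl3, Elavl4, Ina, Nefl, Nefm and Dcx), while the next cell held 10, and in cKO 2 one cell held 55. The 9 placodal neuron markers other than Neurod1 summed to 45.0 and 78.1 CPM in cKO cells, against 83.6 and 355 CPM in control cells. Xist stood at 239.5 and 0 CPM in cKO cells, against 345 and 353 CPM in control cells, so cKO 2 lacked it. Each Y-linked gene examined was higher in cKO 2 than in cKO 1, such as Eif2s3y at 52.1 against 30.8 CPM. The cKO libraries thus differed in the sex of their cells, and its part in the results was not tested. Over the 6 pairs of libraries, 19 cell barcodes were shared.

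Neurog1-positive cells made up a larger share of the otic epithelium in both cKO libraries than in either control library. They were 5.58% (95% exact interval 4.07 to 7.44%) of otic-gate cells in cKO 1 and 4.42% (3.37 to 5.67%) in cKO 2, against 2.67% (1.95 to 3.56%) in control 1 and 1.39% (0.863 to 2.12%) in control 2. The groups did not overlap, although the intervals of cKO 2 and control 1, which cover counting error only, did. The means were 4.997% ± 0.820 in cKO and 2.03% ± 0.904 in control (SD, n = 2 each), a ratio of 2.46. The two-sided exact permutation test gave p = 0.333, the smallest value that 2 against 2 libraries allow. Neurog1 itself stood at 163 and 167 CPM in the cKO cells, against 131 and 154 CPM in the control cells.

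The share depended on its denominator. Otic-gate cells were 23.1% and 34.0% of all cells in the cKO libraries, against 41.9% and 40.2% in the control libraries. Over all cells, the Neurog1-positive share was 1.29% and 1.502% in cKO, against 1.12% and 0.559% in control, a ratio of 1.66, and cKO 1 lay only slightly above control 1. The gate genes also differed by genotype: otic-gate cells held a median of 6 and 6 UMIs of Hmx2, Hmx3, Lmx1a and Oc90 in cKO, against 12 and 15 in control. With the gate set on Pax2 and Pax8 in their place, the share was 8.14% and 7.24% in cKO, against 2.37% and 1.57% in control, a ratio of 3.91. With no limit on Neurod1, which admits cells further along the neuronal path, it was 11.2% and 8.57% in cKO, against 5.91% and 3.53% in control. Reading Neurog1 from 10000 UMIs in every cell gave 2.36% and 1.83% in cKO, against 1.14% and 0.472% in control. Neurog1 UMIs also occurred in cells of other types. Among mesenchyme cells, 3 of 195 and 2 of 70 in the cKO libraries reached 2 Neurog1 UMIs, against 0 of 93 and 0 of 131 in the control libraries, at median totals of 34892 and 33534 UMIs in cKO and 31886 and 26355 UMIs in control. Among leukocytes the counts were 1 of 54 and 0 of 52 in cKO, against 1 of 47 and 0 of 40 in control, and no endothelial cell of any library reached 2. This background in mesenchyme thus moved with genotype in the same direction as the share, and its part in the share was not tested.

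**Figure D1:**
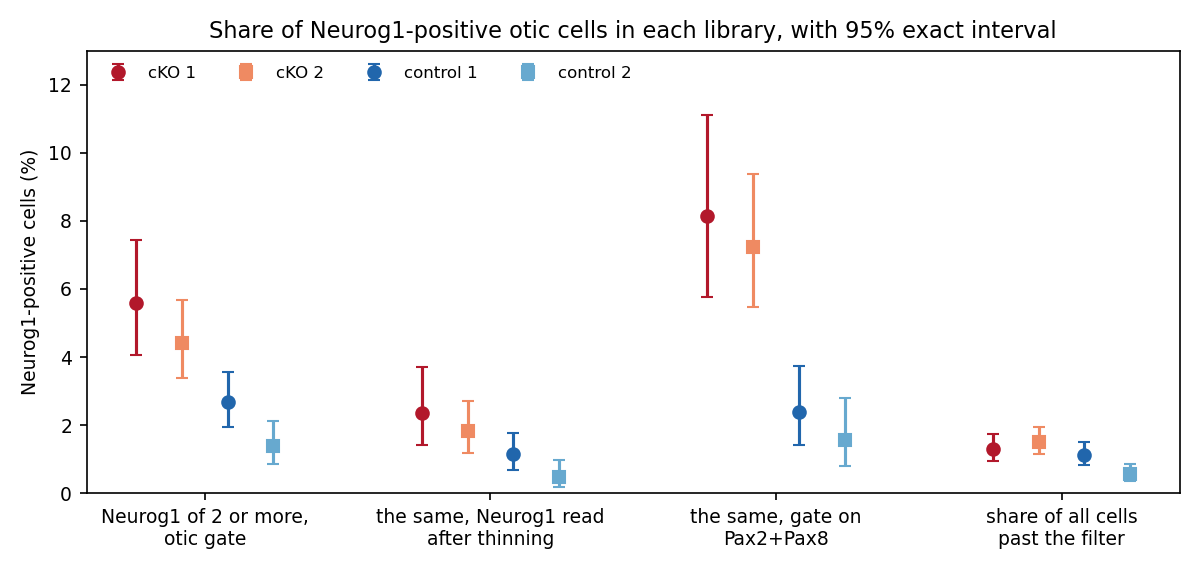
Share of Neurog1-positive cells (percent, vertical axis) in each of the 4 libraries, under 4 definitions along the horizontal axis. Points are libraries and bars are 95% exact intervals of counting error. Both cKO libraries lie above both control libraries under each definition, by the least, 1.29% in cKO 1 against 1.12% in control 1, as a share of all cells.

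Set against Neurog1-zero otic cells, the Neurog1-positive cells had their highest ratios in Dll1, Gadd45g, Prdm12 and Mfng. This contrast follows from the choice of cells on Neurog1, so it is given as a description with no test. Of 5743 genes with at least 20 CPM in either state, 15, or 0.261%, were at least 2-fold higher in Neurog1-positive cells of all 4 libraries, and 12, or 0.209%, were at least 2-fold lower. Gate genes were not left out of these counts, so Neurog1 itself is among the 15. The 15 genes of highest mean ratio, used below, exclude gate genes and are another set. Dll1 had the highest mean log2 ratio after Neurog1, 3.45 ± 0.30 (SD over 4 libraries, on CPM + 1). It stood at 52.1 and 53.2 CPM in Neurog1-positive cKO cells, against 4.60 and 4.89 CPM in Neurog1-zero cKO cells. In the control libraries it stood at 22.4 and 32.2 CPM in Neurog1-positive cells, against 1.04 and 1.30 CPM in Neurog1-zero cells. All 4 Neurog1-positive values lay above all 4 Neurog1-zero values.

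Further genes with high ratios had varied roles. Gadd45g, a growth arrest gene that neurogenic factors switch on, had a mean log2 ratio of 3.25 ± 0.86. Lfng and Mfng encode fringe enzymes that add sugars to Notch receptors, and their mean log2 ratios were 2.01 ± 0.77 and 2.74 ± 0.49. Mfng stood at 22.7 and 39.1 CPM in cKO cells and at 25.7 and 24.4 CPM in control cells, so the genotypes overlapped. Hes6, which counters the Notch target Hes1 and promotes differentiation, had a ratio of 1.39 ± 0.42. Among transcription factors, Prdm12, known from sensory neuron development, had a ratio of 3.14 ± 0.96 and Ebf1 one of 2.66 ± 0.34. The growth factor genes Fgf3, at 2.52 ± 1.34, and Ntf3, the gene of neurotrophin 3, at 2.36 ± 0.58, followed. Otol1, a gene of the otoconial matrix, was at 1.61 ± 0.46, Phactr1 at 1.58 ± 0.07 and Gjb2, the gene of a cochlear gap junction protein, at 1.41 ± 0.92. The lowest ratios included the following genes. Rspo3, an enhancer of WNT signalling, was at -2.84 ± 1.46, Fst, which encodes the activin and BMP antagonist follistatin, at -2.17 ± 1.63, Gbx2, a dorsal otic factor, at -2.005 ± 0.71, Msx2 at -1.99 ± 1.24 and Wnt6 at -1.87 ± 0.27.

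**Figure D2:**
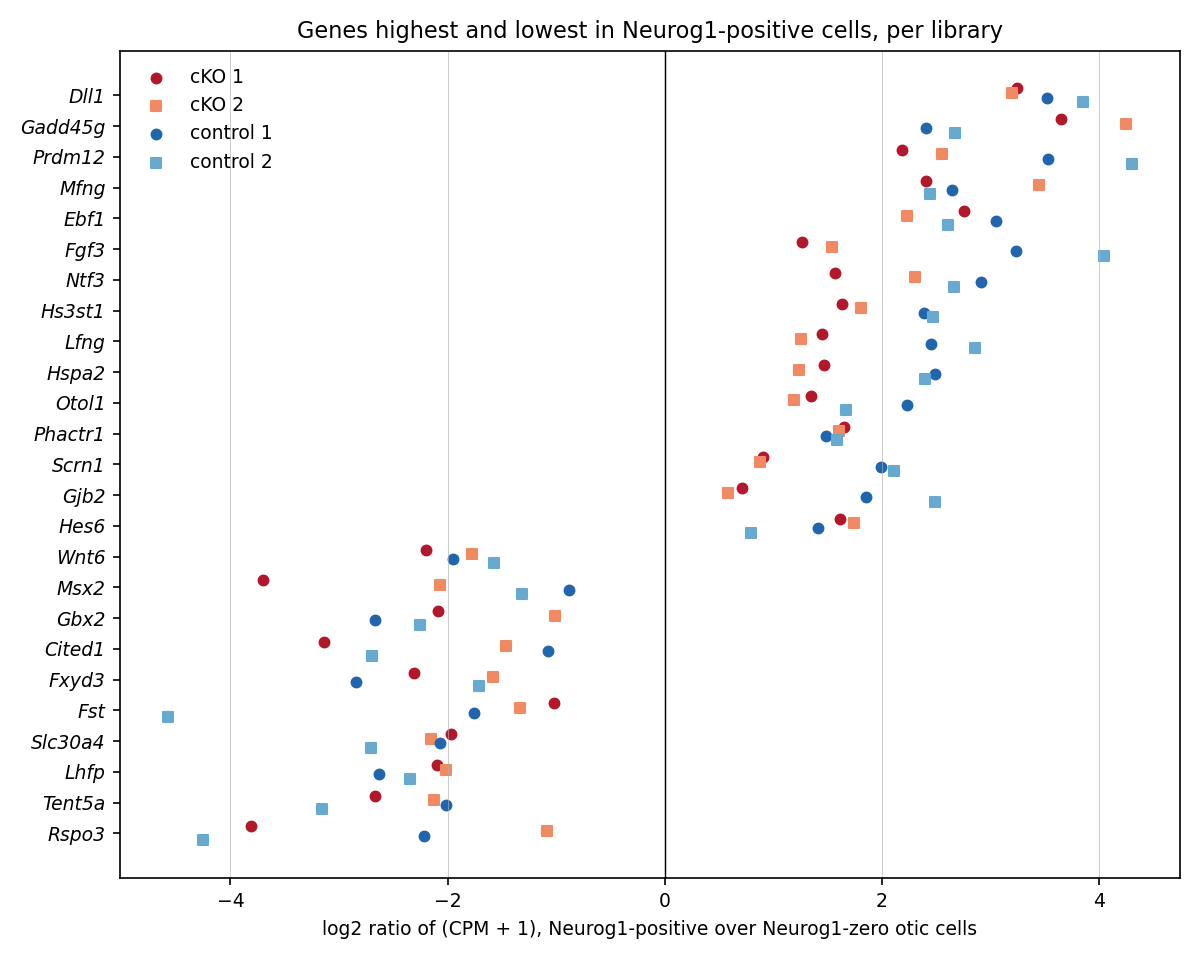
Log2 ratio of CPM + 1, Neurog1-positive over Neurog1-zero otic cells (horizontal axis), for the 15 highest and 10 lowest genes by their mean over 4 libraries (rows). Each point is a library. Dll1 leads at a mean of 3.45 and Rspo3 is lowest at -2.84, and every gene shown keeps its sign in all 4 libraries.

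Promoter bases are printed for 4 of the genes that rise with Neurog1, chosen after their values were seen, because Neurog1 belongs to the basic helix-loop-helix class whose proteins bind E-boxes, CANNTG. The bases are the 250 before the farthest upstream RefSeq start (build GRCm38.p6), read 5′ to 3′ on the gene's strand, with each CANNTG in capitals. They lie at chr17:15376933-15377182 (minus strand) for Dll1, chr13:51846425-51846674 (plus) for Gadd45g, chr1:91414039-91414288 (minus) for Hes6 and chr5:140607091-140607340 (plus) for Lfng.
Dll1: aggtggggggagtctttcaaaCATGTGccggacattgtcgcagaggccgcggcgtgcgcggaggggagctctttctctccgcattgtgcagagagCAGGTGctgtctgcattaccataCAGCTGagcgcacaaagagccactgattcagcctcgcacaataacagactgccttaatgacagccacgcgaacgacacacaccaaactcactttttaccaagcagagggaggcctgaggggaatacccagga
Gadd45g: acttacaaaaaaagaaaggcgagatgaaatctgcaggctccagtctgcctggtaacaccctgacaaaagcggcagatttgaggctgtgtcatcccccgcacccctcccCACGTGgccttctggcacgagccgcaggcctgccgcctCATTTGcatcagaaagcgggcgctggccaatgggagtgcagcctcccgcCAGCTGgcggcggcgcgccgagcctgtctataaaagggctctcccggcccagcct
Hes6: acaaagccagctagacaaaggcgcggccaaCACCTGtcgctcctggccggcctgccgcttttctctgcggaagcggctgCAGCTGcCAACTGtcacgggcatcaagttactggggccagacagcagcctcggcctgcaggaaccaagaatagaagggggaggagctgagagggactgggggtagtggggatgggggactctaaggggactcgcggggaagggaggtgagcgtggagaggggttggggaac
Lfng: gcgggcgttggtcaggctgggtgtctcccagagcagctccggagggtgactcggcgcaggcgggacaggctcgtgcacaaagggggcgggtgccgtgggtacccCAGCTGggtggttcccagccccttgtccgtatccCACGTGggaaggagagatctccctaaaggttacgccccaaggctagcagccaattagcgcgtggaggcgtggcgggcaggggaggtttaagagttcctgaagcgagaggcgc
The Dll1, Gadd45g and Hes6 stretches hold 3 E-boxes each and the Lfng stretch 2, and each of the 4 holds the E-box form CAGCTG once. Both motifs read the same on either strand, and every CAGCTG is counted among the E-boxes too. Of the 15 genes with the highest mean ratio, 14 were in the table, with 20 promoters. Any E-box was in 12 of these (60%), against 66.2% of all 32851 promoters of the same length, and the CAGCTG form was in 6 (30%), against 13% of all. The 4 printed stretches are among those 6, so their CAGCTG matches are no separate observation. Several starts of the same gene were counted apart in these shares. These matches describe letters and not sites of binding.

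Within the otic gate, the levels of several of these genes were higher in cells with more Neurog1 UMIs. Dll1 stood at 15.4 and 13.2 CPM in cKO cells with 1 Neurog1 UMI, just outside the choice, against 2.14 and 3.53 CPM in such control cells. Just inside, at 2 Neurog1 UMIs, it stood at 21.0 and 18.1 CPM in cKO, against 8.11 and 19.9 CPM in control. At 6 or more it reached 77.4 and 82.2 CPM in cKO, against 72.6 and 39.6 CPM in control. In every library Dll1 was highest in the cells with 6 or more Neurog1 UMIs, and so was Gadd45g, at 162 and 223 CPM in cKO, against 249 and 172 CPM in control. Sox2 behaved differently. In control libraries it stood at 99.5 and 80.9 CPM in Neurog1-zero cells and at 334 and 294 CPM in cells with 6 or more Neurog1 UMIs. In cKO libraries it was nearly flat, at 93.5 and 96.8 CPM in Neurog1-zero cells and 112 and 118 CPM in the top class. The make-up of the cells differed as well: 19 of 43 and 29 of 58 cKO cells had 6 or more Neurog1 UMIs, against 13 of 45 and 7 of 21 control cells. Neurod1, the next factor in the cascade and limited by the gate, was detected in 5 and 9 cKO cells, against 12 and 7 control cells.

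**Figure D3:**
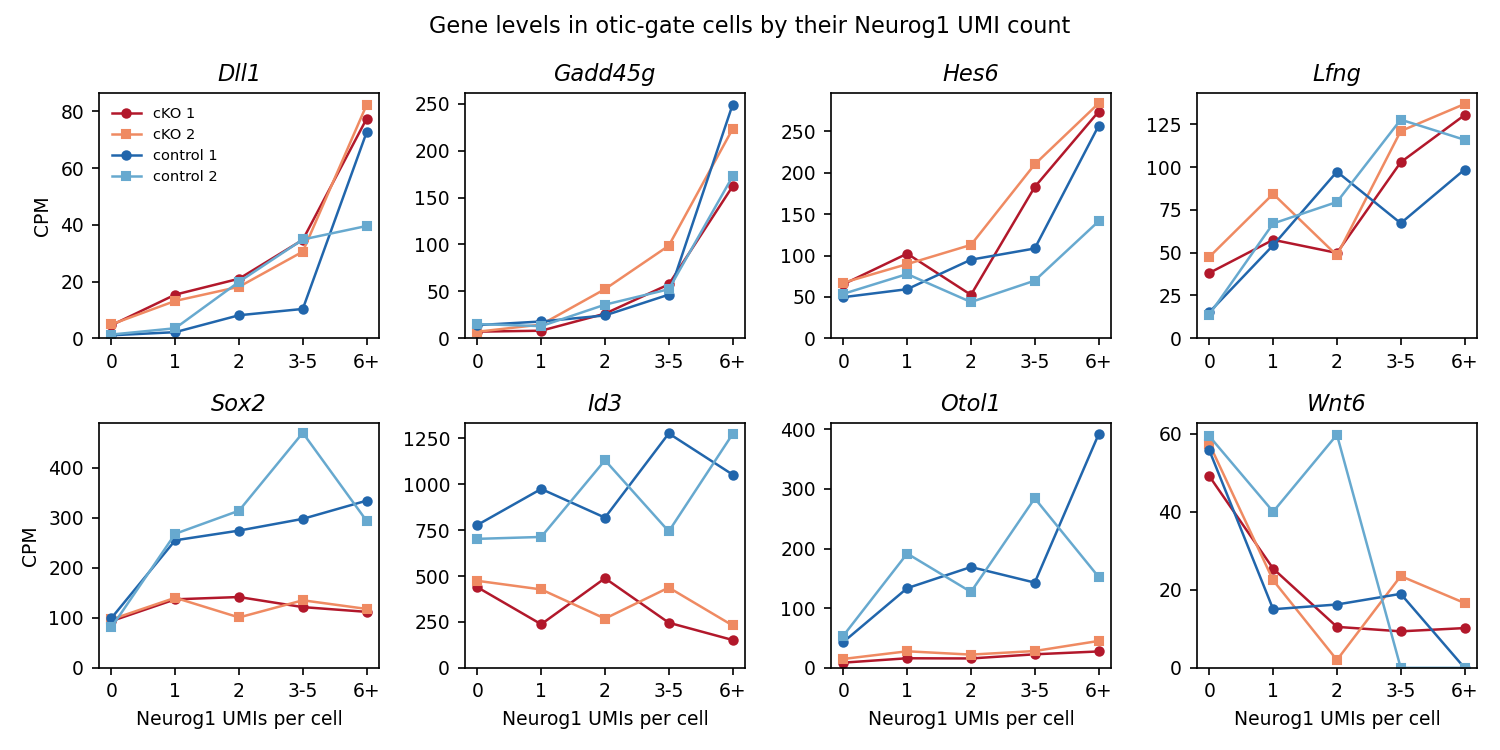
CPM (vertical axis) of 8 genes in otic-gate cells by the number of Neurog1 UMIs in the cell (horizontal axis, 0 to 6 or more), with 1 line per library. Dll1, Gadd45g and Hes6 are highest at 6 or more Neurog1 UMIs in all 4 libraries, whereas Sox2 is higher at 1 or more than at 0 in control libraries and stays between 93.5 and 142 CPM in cKO libraries.

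The main comparison asked how loss of Tbx2 and Tbx3 changed gene expression within the Neurog1-positive cells. UMIs were summed per library over these cells, and edgeR's quasi-likelihood test was run on 9534 genes with Benjamini-Hochberg adjustment at 0.05. It called 1353 genes, or 14.2%, of which 728 (7.64%) were higher and 625 (6.56%) lower in cKO. The median log2 change over all tested genes was -0.01. In Neurog1-zero otic cells the same test called 34.9% of 15021 genes. The count was 856 without cKO 1, 459 (368 higher and 91 lower) with DESeq2, and 36 of 1231 tested genes when every cell was thinned to 10000 UMIs. Thinned cells were gated anew, which left 6 and 8 Neurog1-positive cells in cKO, against 13 and 3 in control. The 36 genes thus come from fewer cells as well as fewer UMIs. Log2 changes below are cKO over control ± standard error, and adjusted p-values are from edgeR.

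The targeted genes were lower in the cKO cells. Tbx3 (chr5:119670669-119684724, GENCODE vM21 on mm10) stood at 12.3 and 22.2 CPM in cKO cells, against 101 and 103 CPM in control cells. The groups were far apart, with a log2 change of -2.41 ± 0.21 (edgeR adjusted p = 9.56e-07). Tbx2 (chr11:85832551-85841948) stood at 61.1 and 59.7 CPM in cKO cells, against 119.7 and 118 CPM in control cells (-0.87 ± 0.14, edgeR adjusted p = 0.000586). The deleted exons are not given in the sources used here, and counts near the 3′ end may lie outside them, so a remaining count does not show intact transcript. Of the 4 tested T-box genes these were the 2 that fell. Tbx1, at 17.5 and 20.3 CPM in cKO cells and 29.0 and 25.7 CPM in control cells, did not pass (-0.44 ± 0.24, edgeR adjusted p = 0.247).

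Among neurogenic genes, the ligand and the pro-differentiation factor were higher in cKO cells and the ID inhibitors lower. Dll1, with the values above, rose by 1.15 ± 0.21 on the log2 scale (edgeR adjusted p = 0.0014), and both cKO libraries lay above both control libraries. Among cells with 2 Neurog1 UMIs, however, its values overlapped between genotypes, and among those with 6 or more they did not. A larger part of the cKO cells had 6 or more, and the role of this in the rise was not tested. Hes6 stood at 202 and 227 CPM in cKO cells, against 133 and 93.9 CPM in control cells, and rose by 0.98 ± 0.15 (edgeR adjusted p = 0.000304). Id3, which encodes an inhibitor of proneural factors, stood at 246 and 305 CPM in cKO cells, against 1013 and 1109 CPM in control cells (-1.82 ± 0.11, edgeR adjusted p = 1.62e-08). Its control values were more than 3 times its cKO values. Id1 and Id2 fell as well, by 0.98 ± 0.11 and 0.86 ± 0.12 (edgeR adjusted p = 1.01e-05 and 9.73e-05). Of 14 tested proneural and neuroblast genes, 3 rose and 6 fell, while 5 missed the threshold, and the median log2 change was -0.43. Over all tested genes, 7.64% were higher and 6.56% lower in cKO. Sox4, a factor of early neuronal differentiation, stood at 424 and 437 CPM in cKO cells, against 646 and 795 CPM in control cells (-0.62 ± 0.11, edgeR adjusted p = 0.00107). Ebf3 also fell (-1.47 ± 0.24, edgeR adjusted p = 0.00072). Gadd45g and Ebf1 passed with all libraries, at 0.64 ± 0.18 and 0.87 ± 0.21, yet the edgeR adjusted p of Gadd45g was 0.326 without cKO 2, and 0.0978 without control 1, and that of Ebf1 was 0.108 without cKO 1.

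Prdm12 and Ntf3, both high in Neurog1-positive cells of every library, were nonetheless lower in cKO. Prdm12 stood at 10.9 and 15.3 CPM in cKO cells, against 48.6 and 70.8 CPM in control cells (-1.98 ± 0.25, edgeR adjusted p = 4.12e-05). Ntf3 stood at 22.7 and 30.6 CPM in cKO cells, against 115 and 82.3 CPM in control cells (-1.81 ± 0.20, edgeR adjusted p = 1.03e-05). Thus genes of the same state moved in opposite directions. Of the 15 genes with the highest mean ratio over Neurog1-zero cells, Dll1, Gadd45g, Ebf1, Hs3st1 and Hes6 rose in cKO, whereas Prdm12, Ntf3, Hspa2, Otol1 and Scrn1 fell and Mfng, Fgf3, Lfng, Phactr1 and Gjb2 did not pass. The calls of Gadd45g (edgeR adjusted p = 0.326 without cKO 2, 0.0978 without control 1) and Ebf1 (0.108 without cKO 1) rest on single libraries.

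Notch genes are given by role, beside shares over all tested genes of 7.64% higher and 6.56% lower. Among ligands, 3 were tested and Dll1 and Dlk1 rose. Dlk1, an atypical ligand, stood at 13.7 and 11.9 CPM in cKO cells, against 3.28 and 6.43 CPM in control cells (1.67 ± 0.45, edgeR adjusted p = 0.02, against 0.119 without cKO 1, 0.0501 without cKO 2 and 0.273 without control 1). Jag1, the ligand of the prosensory domain, stood at 59.6 and 55.9 CPM in cKO cells, against 74.9 and 117 CPM in control cells, and did not pass (-0.54 ± 0.18, edgeR adjusted p = 0.0552). Of 17 tested receptors and modifiers none rose and 4 fell, and 2 fell without cKO 1. Notch3 stood at 8.05 and 11.9 CPM in cKO cells, against 22.4 and 39.9 CPM in control cells (-1.39 ± 0.33, edgeR adjusted p = 0.00951). Maml3, a co-activator of the Notch receptor's cut form, fell likewise (-1.45 ± 0.31, edgeR adjusted p = 0.00529). Lfng did not pass, at 106 and 115 CPM in cKO cells and 88.0 and 107 CPM in control cells (0.33 ± 0.14, edgeR adjusted p = 0.127). Of 5 tested Notch targets 1 passed. Hey2 fell, with an edgeR adjusted p of 0.0299 that was 0.0745 without cKO 1, 0.208 without cKO 2 and 0.343 without control 1. Hes1, the main target, stood at 124 and 102 CPM in cKO cells, against 139.9 and 198 CPM in control cells (-0.43 ± 0.16, edgeR adjusted p = 0.0747).

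Sox2, Fgf10, Otol1 and Slitrk6 were among the prosensory and regional otic genes that fell in the cKO cells. Sox2, a factor of both prosensory and neurogenic progenitors, stood at 121 and 120.2 CPM in cKO cells, against 295 and 339.7 CPM in control cells. It fell by 1.27 ± 0.12 (edgeR adjusted p = 2.27e-06), and its groups were far apart. Beside the lists of this paragraph stand shares over all tested genes of 7.64% higher and 6.56% lower. Of 16 tested prosensory and anteroventral genes none rose and 6 fell, with a median log2 change of -0.41. Without cKO 2, 3 fell and Fgf8 rose, and without control 2, 4 fell and Eya2 and Hey1 rose, of 17 tested in each. Fgf10, a ligand of the prosensory domain, stood at 9.47 and 9.19 CPM in cKO cells, against 44.3 and 34.7 CPM in control cells (-2.01 ± 0.26, edgeR adjusted p = 7.01e-05). Of 11 tested ventral, posterior and nonsensory genes 7 fell and none rose, with a median of -1.52, but without control 1 only Gata2, Otol1 and Slitrk6 of 10 tested fell, with a median of -0.74. Otol1 stood at 23.7 and 35.2 CPM in cKO cells, against 208 and 174 CPM in control cells (-2.58 ± 0.17, edgeR adjusted p = 3.49e-08). Slitrk6, which encodes a membrane protein needed for inner ear innervation, fell by 1.67 ± 0.16 (edgeR adjusted p = 2.35e-06). Otx1, a factor of the ventral and lateral vesicle, was at 0.947 and 2.30 CPM in cKO cells, against 16.4 and 6.43 CPM in control cells (edgeR adjusted p = 0.00324). Of 8 tested dorsal genes 4 fell and none rose, with a median of -0.89, and Bmp4 and Msx2 alone fell without cKO 1 or without control 1. Msx2 among them stood at 0.473 and 3.83 CPM in cKO cells, against 16.9 and 12.9 CPM in control cells (-2.60 ± 0.54, edgeR adjusted p = 0.00365).

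In the placode network of 19 tested genes of the PAX, EYA and related families, 2 rose and 5 fell, with a median of -0.25, and 3 fell without cKO 1. Among all tested genes 7.64% rose and 6.56% fell. Sox9, an early otic factor, stood at 145 and 122 CPM in cKO cells, against 333 and 328 CPM in control cells (-1.20 ± 0.12, edgeR adjusted p = 5.18e-06). Sox3, a relative of Sox2, went the other way, with 16.1 and 16.1 CPM in cKO cells against 1.09 and 0 CPM in control cells (edgeR adjusted p = 0.000152). Eya1, the placodal co-activator, did not pass, at 103 and 98.0 CPM in cKO cells and 112 and 109 CPM in control cells (-0.03 ± 0.13, edgeR adjusted p = 0.925). Eya2 did not pass either, at 8.52 and 5.74 CPM in cKO cells and 0.547 and 10.3 CPM in control cells (edgeR adjusted p = 0.344).

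**Figure D4:**
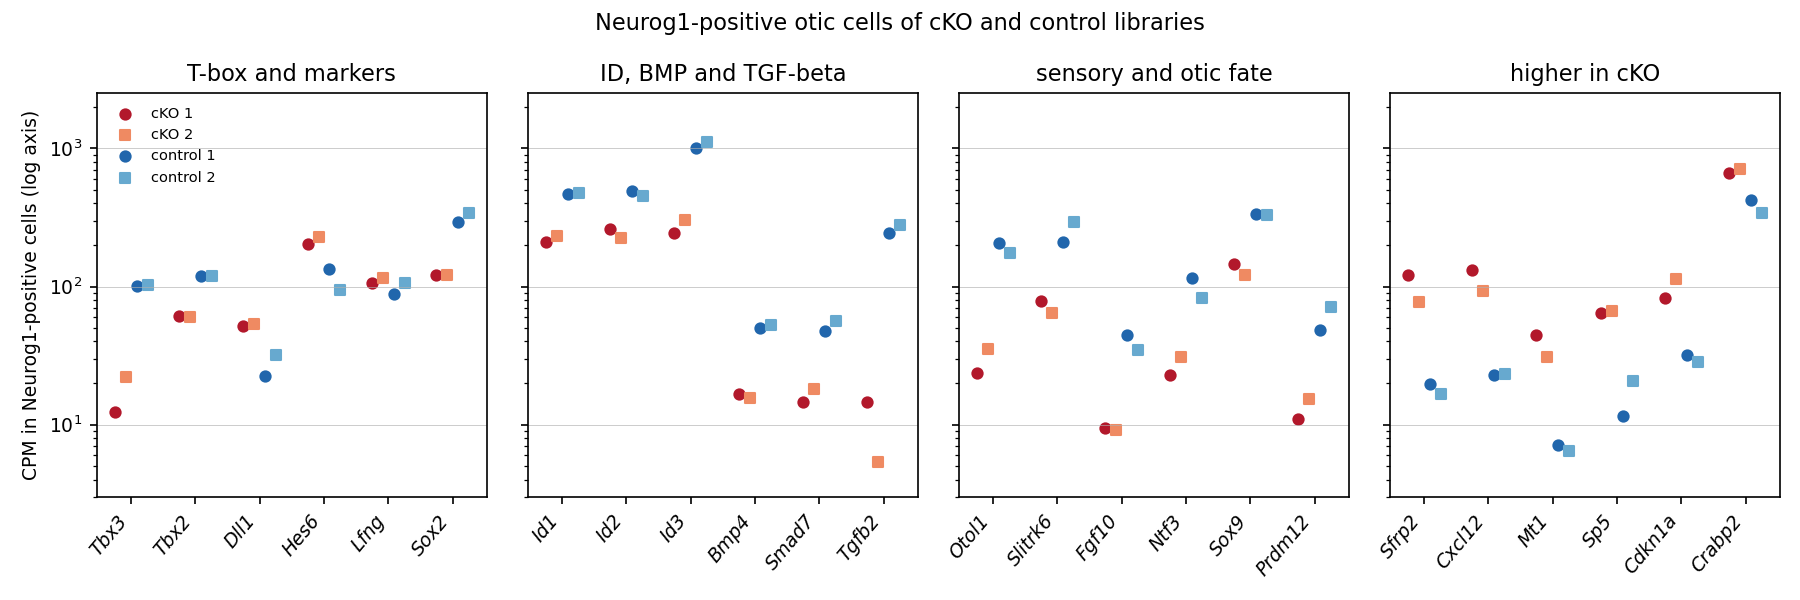
CPM in Neurog1-positive cells (vertical log axis) of 24 genes in 4 groups, cKO libraries left of control libraries. In each gene but Lfng, both cKO libraries lie beyond both control libraries. The Lfng values, 106 and 115 CPM in cKO and 88.0 and 107 CPM in control, overlap.

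Signalling genes changed in several pathways. The counts of each signalling list, here and in the following paragraphs, stand beside 7.64% higher and 6.56% lower over all tested genes. Of 11 tested BMP and TGF-beta genes 5 fell and 1 rose, with a median of -0.41. Bmp4, a ligand, stood at 16.6 and 15.7 CPM in cKO cells, against 49.7 and 52.8 CPM in control cells (-1.54 ± 0.21, edgeR adjusted p = 0.000121). Smad7, an inhibitor that these pathways induce, stood at 14.7 and 17.996 CPM in cKO cells, against 47.6 and 56.6 CPM in control cells (-1.51 ± 0.22, edgeR adjusted p = 0.000202). The ligand Tgfb2 had one of the largest falls, to 14.7 and 5.36 CPM in cKO cells, against 243 and 278 CPM in control cells (-4.62 ± 0.23, edgeR adjusted p = 1.29e-09). Follistatin was the riser, with Fst at 16.1 and 22.2 CPM in cKO cells against 3.83 and 0 CPM in control cells (edgeR adjusted p = 0.00107).

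Of 22 tested WNT genes 4 rose and 5 fell, with a median of -0.12, and 3 fell without control 1. Dkk1, which encodes a secreted WNT inhibitor, was found in 1 of 43 and 1 of 58 cKO cells, with 3 and 1 UMIs, against 16 of 45 and 5 of 21 control cells, with 135 and 45 UMIs. Its edgeR adjusted p was 2.25e-08, and the fitted log2 change of -6.10 ± 0.39 rests on those 4 cKO UMIs. Sfrp1 and Sfrp2, relatives that encode secreted binders of WNT, moved oppositely. Sfrp2 stood at 121 and 77.0 CPM in cKO cells, against 19.7 and 16.7 CPM in control cells (2.50 ± 0.25, edgeR adjusted p = 4.91e-06). Sfrp1 stood at 99.4 and 106 CPM in cKO cells, against 183 and 248 CPM in control cells (-0.92 ± 0.14, edgeR adjusted p = 0.000353). Sp5, a target that WNT signalling induces, rose by 2.29 ± 0.23 (edgeR adjusted p = 5.23e-06).

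Of 18 tested FGF genes 2 rose and 1 fell, with a median of 0.09, a share close to that of all tested genes. Without cKO 2, 4 rose and 1 fell, without control 1, 5 rose and 2 fell (19 tested in each), and without cKO 1, 2 rose and 2 fell. Fgf3, a ligand of otic induction and neurogenesis, stood at 57.8 and 60.9 CPM in cKO cells and 56.8 and 65.6 CPM in control cells, and did not pass (0.10 ± 0.16, edgeR adjusted p = 0.75). Fgf9 stood at 50.7 and 47.9 CPM in cKO cells, against 30.1 and 21.9 CPM in control cells (0.96 ± 0.21, edgeR adjusted p = 0.00505), and the feedback inhibitor Spry1 rose too (1.28 ± 0.26, edgeR adjusted p = 0.00365). Of 9 tested retinoic acid genes 4 rose and none fell, with a median of 0.55, and without control 1, 3 rose and 1, Aldh1a3, fell of 10 tested. Crabp2, which encodes a carrier of retinoic acid, stood at 664 and 713 CPM in cKO cells, against 419.8 and 341 CPM in control cells (0.95 ± 0.11, edgeR adjusted p = 2.59e-05). The chemokine gene Cxcl12 stood at 133 and 92.7 CPM in cKO cells, against 23.0 and 23.2 CPM in control cells (2.39 ± 0.22, edgeR adjusted p = 1.62e-06). Of 7 tested hedgehog genes 2 fell and none rose, and 1 fell without control 1. Gas1, a co-receptor, stood at 197 and 167 CPM in cKO cells, against 382 and 479 CPM in control cells (-1.11 ± 0.13, edgeR adjusted p = 1.76e-05).

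Proliferation genes are given by phase, and the difference between phases was not tested. Of 20 tested S phase genes 7 rose and none fell, with a median of 0.40, among them Pcna, the DNA polymerase clamp, at 259 and 239 CPM in cKO cells, against 160.1 and 165 CPM in control cells (0.73 ± 0.12, edgeR adjusted p = 0.000565). Tyms, which makes thymidylate, rose by 0.98 ± 0.14 (edgeR adjusted p = 0.000133). Of 20 tested G2 and M phase genes none rose and 2, Mki67 and Bub1b, fell, with a median of 0.11. For the lists of this paragraph, the shares over all tested genes were 7.64% higher and 6.56% lower. Without cKO 1 or without cKO 2, Mki67 alone fell, without control 1, 4 genes fell, and without control 2, 3 rose and Mki67 fell. Mki67, a marker of cycling cells, stood at 128 and 141 CPM in cKO cells, against 208 and 318 CPM in control cells (-0.81 ± 0.15, edgeR adjusted p = 0.00222). Of 15 tested genes of cell cycle exit and G1, 4 rose and 1 fell, while 2 rose without cKO 2 or without control 1. Cdkn1a, the gene of the cyclin-dependent kinase inhibitor p21, stood at 82.4 and 113 CPM in cKO cells, against 31.7 and 28.3 CPM in control cells (1.80 ± 0.20, edgeR adjusted p = 1.07e-05). Cdkn1c, its relative p57, did not pass, at 577 and 684 CPM in cKO cells and 648 and 652 CPM in control cells (0.07 ± 0.10, edgeR adjusted p = 0.705). Of 14 tested p53 and apoptosis genes 2 rose and 1 fell, and without cKO 1 none rose and 1 fell of 16 tested.

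Among adhesion genes and neuron genes, Itga6, Cdh11 and Gap43 fell. For both lists, the shares over all tested genes were 7.64% higher and 6.56% lower. Of 22 tested adhesion and delamination genes 6 fell and 1, Krt19, rose, with a median of -0.23. Without cKO 1, 3 fell and 1 rose of 25 tested, and without control 1, 7 fell and 3 rose of 24 tested. The integrin gene Itga6 stood at 24.6 and 24.5 CPM in cKO cells, against 57.4 and 66.9 CPM in control cells (-1.20 ± 0.19, edgeR adjusted p = 0.000495). Cdh11, which encodes a cadherin, fell by 1.11 ± 0.23 (edgeR adjusted p = 0.00365). Of 12 tested early neuron genes 4 fell and none rose, with a median of -0.80. With the neuron-like cells of cKO 2 and control 2 left out, Tubb3, Dcx and Gap43 still fell, Nefm did not pass and Ina rose, with a median of -0.25 over 9 tested. Without the whole control 2 library, Gap43 fell and Ina rose of 15 tested, with a median of 0.11, and without control 1, 10 of 16 tested fell, with a median of -1.99. Gap43, a growth cone gene, fell without each library in turn and stood at 2.84 and 6.89 CPM in cKO cells, against 29.0 and 36.03 CPM in control cells (-2.52 ± 0.36, edgeR adjusted p = 0.00017). Tubb3, the neuronal tubulin gene, stood at 27.0 and 37.5 CPM in cKO cells, against 45.9 and 159.5 CPM in control cells, with 66.1% of the control 2 UMIs in 1 cell. Its log2 change was -1.34 (edgeR adjusted p = 0.0216), and -0.88 (edgeR adjusted p = 0.0095) with the neuron-like cells left out, while the edgeR adjusted p was 0.303 without control 2.

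The 7 markers of neural crest or glia include the otic gene Sox10. Of 6 tested, 3 fell, against 6.56% of all tested genes. Ednrb, which encodes an endothelin receptor, stood at 1.42 and 2.30 CPM in cKO cells, against 42.6 and 59.2 CPM in control cells (-4.52 ± 0.36, edgeR adjusted p = 3.76e-07). The summed level of the list was 105 and 126 CPM in cKO cells, against 271 and 414 CPM in control cells, and its part in the other results was not tested. Among the largest changes outside the lists, Filip1 fell (-5.25 ± 0.51, edgeR adjusted p = 3.05e-06, on 3 UMIs in all cKO cells), Zfp536 fell (-3.97 ± 0.31, edgeR adjusted p = 2.24e-07) and Zfp503 rose (1.89 ± 0.21, edgeR adjusted p = 1.08e-05). Ripply3, which encodes a co-repressor that binds T-box proteins, stood at 46.4 and 22.6 CPM in cKO cells, against 4.92 and 6.43 CPM in control cells (2.74 ± 0.43, edgeR adjusted p = 0.000438).

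Of 17 tested glycolysis and hypoxia genes 7 rose and none fell, with a median of 0.35, and without cKO 1, 4 rose and 1 fell, with a median of 0.14. Gapdh stood at 3984 and 4069.7 CPM in cKO cells, against 3082 and 2706 CPM in control cells (0.59 ± 0.09, edgeR adjusted p = 0.000317), and its log2 change in Neurog1-zero cells was 0.57. Of 13 tested dissociation stress genes 4 rose and 2 fell. Beside both lists of this paragraph, 7.64% of all tested genes were higher and 6.56% lower. The metallothionein gene Mt1 rose by 2.54 ± 0.32 (edgeR adjusted p = 5.15e-05).

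The last comparison asked which genotype differences were of another size in Neurog1-positive than in Neurog1-zero otic cells, through the interaction of genotype and state with the library as a block. edgeR called 173 of 13742 genes, or 1.26%, with 51 higher and 122 lower differences, and 1103 genes had an unadjusted p under 0.05. With every cell thinned to 10000 UMIs and gated anew, which left fewer cells, edgeR called 0 genes, with 250 at an unadjusted p under 0.05. DESeq2 on all UMIs called 54.

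For Fgf3, Lfng, Gjb2 and Jag1 the log2 change was lower in Neurog1-positive than in Neurog1-zero cells. Fgf3 did not pass in Neurog1-positive cells, yet in Neurog1-zero cells it stood at 23.5 and 20.3 CPM in cKO, against 5.15 and 3.02 CPM in control (log2 change 2.56). The difference of the changes was -2.35 ± 0.22 (edgeR adjusted p = 1.31e-11). Lfng showed the same pattern, at 38.2 and 47.5 CPM in Neurog1-zero cKO cells, against 15.2 and 13.9 CPM in Neurog1-zero control cells, with a difference of -1.31 ± 0.16 (edgeR adjusted p = 1.89e-08). For Gjb2 the difference was -1.55 ± 0.25 and for Jag1 -0.98 ± 0.17 (edgeR adjusted p = 2.59e-05 and 7.75e-05). In these genes the gap between Neurog1-positive and Neurog1-zero cells was therefore smaller in cKO than in control. Dll1 rose in both states, by 1.15 in Neurog1-positive and 2.18 in Neurog1-zero cells, and its difference did not pass (-1.02 ± 0.36, edgeR adjusted p = 0.239).

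Sox2, Id3, Gadd45g and Cdkn1a also differed between the states. Sox2 had log2 changes of -1.27 in Neurog1-positive cells and 0.23 in Neurog1-zero cells, a difference of -1.42 ± 0.12 (edgeR adjusted p = 7.83e-14). Id3 fell in both states, with a difference of -1.22 ± 0.08 (edgeR adjusted p = 4.29e-17), and the difference of Id1 was -0.68 ± 0.09 (edgeR adjusted p = 5.66e-07). For Bmp4 the difference was -1.14 ± 0.22 and for Gas1 -0.85 ± 0.10 (edgeR adjusted p = 0.000557 and 1.2e-08). Of 18 prosensory genes tested in the interaction 8 were called, 1 with a positive and 7 with a negative difference. By the same count, 3 of 23 FGF genes, 1 of 20 Notch receptors and modifiers and 1 of 5 Notch ligands were called. Over all genes tested in the interaction, 1.26% were called. Genes with a positive difference included Gadd45g, with log2 changes of 0.64 in Neurog1-positive and -0.90 in Neurog1-zero cells and a difference of 1.59 ± 0.18 (edgeR adjusted p = 6.13e-09). Cdkn1a changed by 1.80 in Neurog1-positive cells and by 0.20 in Neurog1-zero cells, a difference of 1.67 ± 0.18 (edgeR adjusted p = 3.12e-10). In Neurog1-zero cells Cdkn1a stood at 67.7 and 110.1 CPM in cKO and at 89.5 and 83.9 CPM in control, so there the genotypes overlapped. Cdh2 and Vim, genes of mesenchymal and neural cells, had differences of -0.86 ± 0.12 and -0.97 ± 0.10 (edgeR adjusted p = 5.26e-07 and 2.27e-10). Among plotted genes past the interaction threshold, the edgeR adjusted p was 0.0897 for Tgfb2 and 0.757 for Otol1 without cKO 2, 1 for Tbx3 without cKO 1, and 0.317 for Sp5, 0.267 for Fgf15 and 0.697 for Otol1 without control 1.

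**Figure D5:**
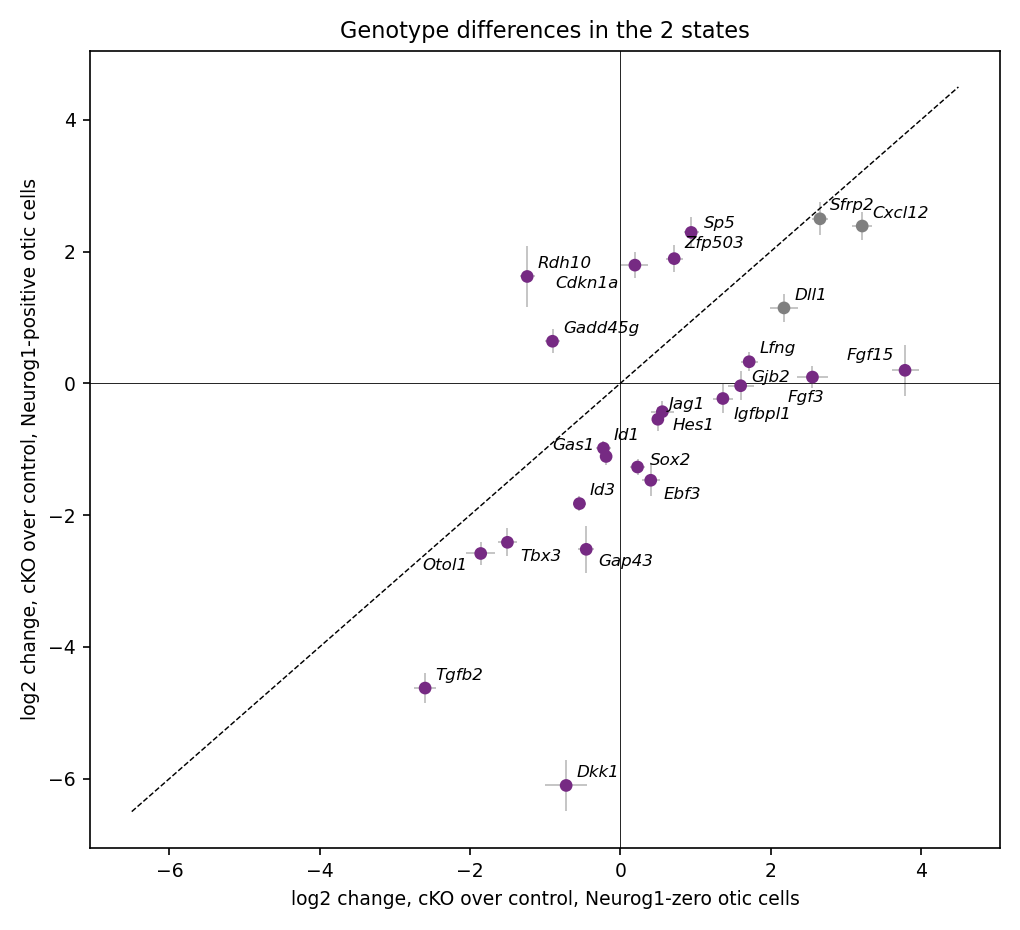
Log2 change, cKO over control, in Neurog1-positive otic cells (vertical axis) against that in Neurog1-zero otic cells (horizontal axis) for 25 genes, with bars of 1 standard error and a dashed line of equal change. Purple points passed the interaction test and grey points (Dll1, Sfrp2 and Cxcl12) did not. Fgf3 and Lfng lie near 0 on the vertical axis with 2.56 and 1.72 on the horizontal axis, and Sox2 lies at -1.27 on the vertical axis with 0.23 on the horizontal axis.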

How the data were processed

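The authors deposited raw UMI counts of 32285 genes per cell barcode, with no normalization. Cell Ranger 6.0.1 stands in the matrices, per the file headers. A different version, 3.1.0, is given by the submitters' processing notes, beside FastQC 0.11.4, Seurat 4.1.0 and mm10. Per the labels' protocols, the kit was the 10x Chromium Next GEM Single Cell 3′ kit v3.1. The 4 libraries were grouped by their titles, and their totals ran from 106769747 to 128205192 UMIs.

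Counts were summed per library over the Neurog1-positive and the Neurog1-zero otic cells, so that libraries were the replicates. Tests used edgeR 4.0.16 in R 4.3.3 (TMM factors, genes kept by filterByExpr, then the quasi-likelihood test) with Benjamini-Hochberg adjustment over all genes tested at 0.05, and were checked on simulated counts. CPM values are per total UMIs of the summed cells. Ratios of states use a pseudocount of 1 CPM. Cell shares carry exact (Clopper-Pearson) intervals and an exact two-sided permutation test over libraries. Alternatives were DESeq2 1.42.0, RLE factors, no filter on low counts, a Neurog1 minimum of 3 UMIs, thinning, other gates, leaving out each library, a replicate block, removal of the highest Scrublet scores (scanpy 1.11.5), and, chosen after seeing the data, a gate on Pax2 and Pax8, thinned Neurog1 alone, and removal of cells with 20 or more UMIs of 7 neuron genes. Scrublet's own threshold called 5 and 0 cells in the cKO libraries and 3 and 2 in the control libraries, so doublets stayed in the main values. The highest scores included 2 of 43 and 3 of 58 Neurog1-positive cKO cells, against 2 of 45 and 5 of 21 control cells. With the highest scores left out, 522 genes were higher and 423 lower in cKO. The Neurog1-positive share was then 5.46% and 4.28% in cKO, against 2.60% and 1.09% in control. Positions are from GENCODE vM21, which held 32235 of the 32285 gene identifiers, and promoters from RefSeq.

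The cells, gene lists and tests were chosen with earlier results of these data known. Named genes were the markers, Tbx2, Tbx3, members of the lists, and the largest called changes at 20 CPM or more (12 each way between genotypes, 5 each way in the interaction, and the 15 highest and 10 lowest between states), leaving out gate, mitochondrial, ribosomal, Xist and Y-linked genes and unnamed gene models. Replicate numbers did not pair the libraries. A few genes that the rule names are not reported here.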

Additional observations from a re-analysis of the deposited data

Results flagged for a closer look

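The following results stood out because the genotype difference in Neurog1-positive otic cells differed from that in Neurog1-zero otic cells by a test of the difference itself, 173 genes in all. Values are the log2 change in Neurog1-positive cells minus that in Neurog1-zero cells, with edgeR adjusted p-values. Rdh10, which encodes a retinol dehydrogenase, had 2.90, with a change of 1.62 in Neurog1-positive cells (adjusted p = 0.026, and 0.306 without control 1) and -1.24 in Neurog1-zero cells, and Cdkn1a had 1.67. Both differences kept an adjusted p below 0.05 without each library in turn. Adamts9 had 2.66 (adjusted p = 0.00227, and 0.972 without cKO 2 or 0.163 without control 1) and Wdcp had 1.60 (adjusted p = 0.000551, and 1 without cKO 1). Dkk1 had -5.35, and kept its call without each library. Gucy1a1 had -3.20 (adjusted p = 0.00578, and 0.815 without cKO 2 or 0.146 without control 1). Tfap2b had -4.88, Nhlh2 -4.79 and Lhx1 -3.48, and all 3 rest on control 2, where 1 cell held 51.2%, 82.1% and 96.7% of their UMIs. Without control 2 their adjusted p-values were 0.988, 0.791 and 0.893, and with the neuron-like cells alone left out they were 0.438, 0.729 and 0.995.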

How the results depend on the processing

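The count of genes changed between genotypes was 1353. It stayed within 1.5 times that under every other setting with all libraries except DESeq2 and thinning. It was 459 with DESeq2 and 36 with cells thinned to 10000 UMIs, where fewer genes (2500 and 1231) got an adjusted p. It ran from 856 to 1348 without 1 library at a time. The count in the interaction was 173, against 54 with DESeq2 and 0 with thinned cells (250 at an unadjusted p under 0.05), and 116 to 228 without 1 library. The difference in share was 2.97 percentage points, and 2.33 to 3.61 without 1 library, with the same direction under every gate and threshold tried. The count of genes 2-fold apart between states was 27, against 75 with thinned cells, 64 at a fold of 1.5, 44 at 5 CPM or more, and 28 to 38 without 1 library. Of the 436 alternative values of single named genes, 402 kept direction and call. The value that reversed was the interaction of Lhx1 at a Neurog1 minimum of 3 (7.34), past no threshold, and the cause was not tested. Replicate numbers did not pair libraries (r of deviations 0.0172 and -0.0172), and a replicate block gave 1838 genes. Of 122 named genes past the threshold between genotypes, 77 kept the call without each library and without neuron-like cells, and 25 of 64 did in the interaction. Gated anew, the thinned cells held 3 to 13 Neurog1-positive cells a library, so counts from them reflect fewer cells as well as lower depth. With 21 to 58 cells a library in the main fits, genes of few UMIs are the least certain.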

Other observations

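Otic-gate cells with exactly 1 Neurog1 UMI also had Tgfb2 at different levels by genotype, with 10.0 and 7.47 CPM in cKO, against 149 and 127 CPM in control. Tgfb2 in Neurog1-zero cells stood at 3.97 and 5.69 CPM in cKO, against 35.0 and 31.3 CPM in control.

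Expression of several genes thought to mark a later step did not differ past the threshold. Insm1, a factor of delaminating neuronal progenitors, stood at 5.68 and 11.9 CPM in cKO cells and 4.92 and 18.01 CPM in control cells (edgeR adjusted p = 0.96). Btg2, a gene of progenitors that divide to give neurons, stood at 18.5 and 19.5 CPM in cKO cells and 16.4 and 25.7 CPM in control cells (edgeR adjusted p = 0.902). Atoh1, the hair cell factor, was at 0 in both cKO libraries and in control 1, and at 1.29 CPM in control 2.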
